A study of Homo sapiens with 6 samples.

Results

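Mutations or common variants in 9 genes, GRN, C9orf72, TARDBP, SOD1, TBK1, VCP, TMEM106B, UNC13A and OPTN, are linked to amyotrophic lateral sclerosis (ALS) or frontotemporal dementia (FTD), and the chromatin around these genes is described here. They were chosen by name as known disease genes, with earlier results of these data known. Every CTCF or H3K27ac peak that shared at least 1 bp with a gene's interval extended by 20 kb on each side was taken. The 9 genes were among 19974 protein-coding genes of the gene table. Their windows held 59 peaks, which were 36 of the 78694 peaks of the H3K27ac list and 23 of the 43677 peaks of the CTCF list. The lists came from chromatin immunoprecipitation and sequencing in neurons that had been derived, by way of neural progenitors, from the human iPSC line KOLF2.1J (induced pluripotent stem cells). CTCF, H3K27ac and input had 2 libraries each, all from this single line, and the labels name no edited gene, drug or time point that would separate them. Each list is a single list for both replicates of its antibody, so no spread between replicates and no read depth could be recovered from it, and no value below carries a test. The values of the 2 input libraries were not analysed here. CTCF is a zinc finger protein that binds DNA at insulators and loop anchors, and H3K27ac is the acetylated histone H3 that marks active promoters and enhancers.

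ALS is a degeneration of motor neurons and FTD a degeneration of the frontal and temporal lobes, and the disorders share genes and aggregated proteins. TARDBP encodes TDP-43, the RNA-binding protein found in aggregates in most patients. GRN (progranulin), TMEM106B and C9orf72 act in lysosomes and membrane traffic. TBK1, OPTN and VCP act in the recognition and clearance of ubiquitin-tagged cargo, SOD1 is a cytosolic superoxide dismutase, and UNC13A prepares synaptic vesicles for release and is a splicing target of TDP-43.

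The marker lists gave a mixed picture of the labelled cell type. All 10 neuron markers had an H3K27ac peak within 20 kb, but so did all 6 neural progenitor markers and 81.3% of all protein-coding genes. The median highest fold enrichment was 37.0 for the neural progenitor list and 19.6 for the neuron list. Over all protein-coding genes it was 14.4, with a gene without a peak counted as 0. Of 8 microglia markers 4 had such a peak, with a median highest value of 1.71, and CSF1R alone of the 7 with a listed start had a peak within 1 kb of it. The microglia markers without a peak were CX3CR1, P2RY12, SPI1 and C1QA, whereas the windows of AIF1 and PTPRC reached 46.8 and 26.0. In the 6 oligodendrocyte markers the count was 4, with a median of 4.93, and MAG and OLIG2 had no peak. In the 6 astrocyte markers it was 5, near the share over all protein-coding genes. Their median of 24.7 was above that of the neuron list. GFAP reached 62.8, GJA1 30.4, S100B 28.8, SLC1A2 20.6 and ALDH1L1 12.8, and AQP4 had no peak. At listed starts, which GFAP, S100B and SLC1A2 lack, astrocyte and neuron markers stood in the other order. The median highest value within 1 kb was 4.39 over 3 astrocyte markers, with a marker without such a peak counted as 0. It was 17.6 over 7 neuron markers and 35.3 over 5 neural progenitor markers, against 8.86 over all protein-coding genes with a listed start. In bulk samples a peak cannot be assigned to one cell type, and fewer cells of a type and less signal per cell cannot be told apart.

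All 9 disease genes had at least 1 H3K27ac peak in their window, as did 81.3% of all protein-coding genes, so this count is near the background. At least 1 CTCF peak was present for 8 of the 9 genes, with a background of 83.0%. The exception was TBK1. The median gene had 4 H3K27ac peaks and 2 CTCF peaks, against medians of 3 and 2 over all protein-coding genes. Fold enrichment, the value of the H3K27ac list, ranged from 2.34 to 54.0 among the 36 peaks, and 16 of them lay below the median of the list. The CTCF signal value, whose scale is not stated, ranged from 9.77 to 345 among the 23 peaks. In 7 of the 8 genes with a listed start, the strongest H3K27ac peak of the window lay within 1 kb of that start. The share over all protein-coding genes was not computed.

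**Figure D1:**
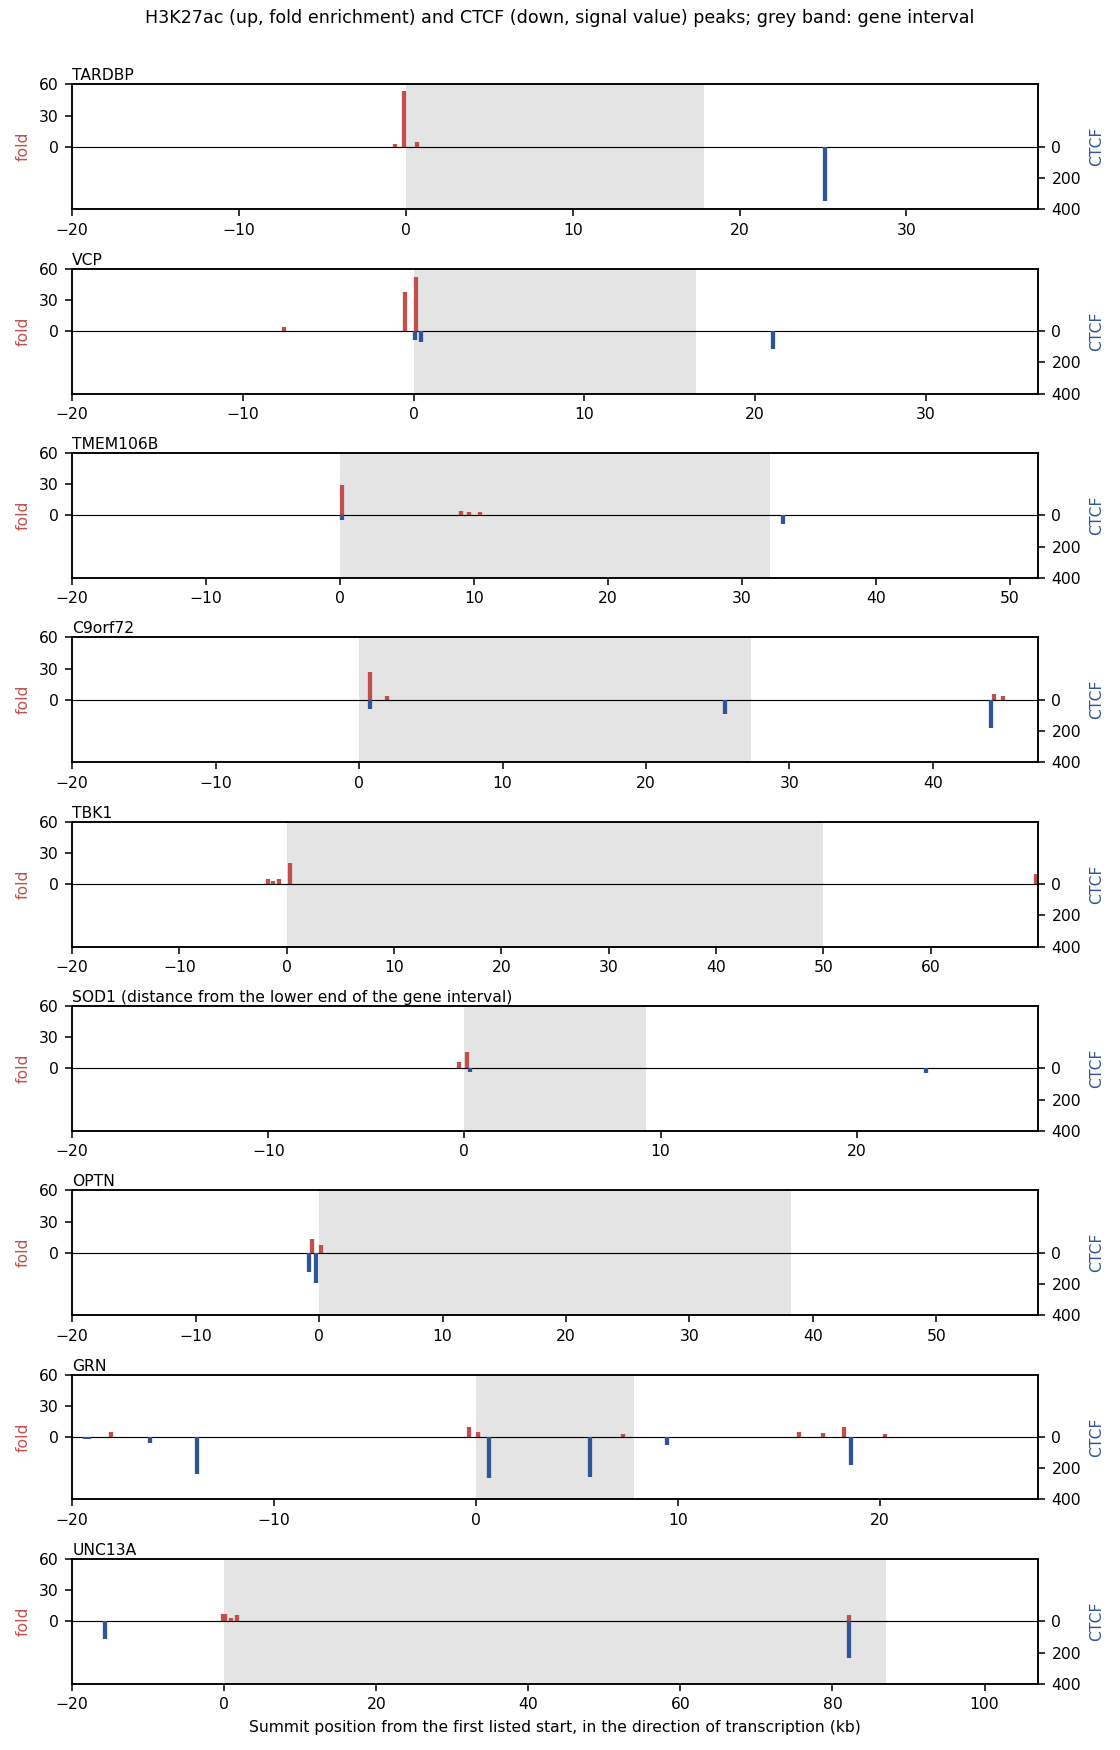
Peaks in the window of each gene by distance of the summit from the first listed start (kb, positive in the direction of transcription; for SOD1 from the lower end of its interval), with H3K27ac fold enrichment drawn upward and CTCF signal value downward. The tall H3K27ac bars sit at 0 kb in TARDBP and VCP, TBK1 has no CTCF bar, and GRN has 8 bars of each kind.

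TARDBP carried the highest H3K27ac value of the set. The gene runs from 11012654 to 11030528 on chromosome 1, and all coordinates given are 1-based positions in hg38. A peak from 11012322 to 11013102 covered the start with a fold enrichment of 54.0, at percentile 99.5 of the list. Its summit lay 141 bp upstream of the start. The neighbours on either side were weak, with fold enrichments of 2.34 and 4.27, and the first of these had a q-value of 0.0579. The stretch from the summit to the start is shown because this peak had the highest H3K27ac value of the 9 genes. It is read on the plus strand at chr1:11012513-11012653, from RefSeq's GRCh38.p14 sequence like the others below, and a match to the SP motif GGGCGG is in capitals.
TARDBP: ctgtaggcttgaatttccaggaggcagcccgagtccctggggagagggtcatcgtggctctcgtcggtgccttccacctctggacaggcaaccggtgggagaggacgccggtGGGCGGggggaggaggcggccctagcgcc
The TARDBP window held a single CTCF peak, and it was the strongest of the 23. This peak spanned 11037549 to 11038024 inside the interval of MASP2, the next gene, 25.1 kb downstream of the TARDBP start. Its signal value was 345, at percentile 98.7, and it did not overlap H3K27ac.

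VCP, the ATPase that extracts ubiquitin-tagged proteins from complexes and membranes, had the next highest acetylation. The gene lies on the minus strand of chromosome 9 from 35056064 to 35072625. A peak from 35071400 to 35072724 covered the start with a fold enrichment of 52.3, at percentile 99.5. Across a gap of 153 bp lay a second strong peak from 35072878 to 35073818 with a fold enrichment of 37.6, at percentile 98.2. VCP thus had a pair of strong peaks, one over the start and one upstream. The promoter of VCP is shown because it covers all but the last 2 bases of this gap, and it held 5 matches to the CCAAT box (CCAAT, or ATTGG on the other strand), in capitals. It is read on the minus strand at chr9:35072626-35072875.
VCP: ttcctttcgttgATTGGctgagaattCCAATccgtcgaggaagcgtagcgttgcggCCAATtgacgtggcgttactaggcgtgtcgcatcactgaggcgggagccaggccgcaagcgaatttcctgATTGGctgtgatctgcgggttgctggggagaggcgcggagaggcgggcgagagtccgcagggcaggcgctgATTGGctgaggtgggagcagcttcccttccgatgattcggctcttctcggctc
A pair of CTCF peaks of modest value lay in the peak over the start, one at 35071967 to 35072382 (signal value 67.1) and one at 35072348 to 35072691 (signal value 58.0). They stood at percentiles 39.5 and 34.3, and the summit of the second was 92 bp downstream of the start. The strongest CTCF peak of the window had a signal value of 117 and lay 21.1 kb downstream, past the end of the gene. The other H3K27ac peak of the window, over the start of FANCG, had a fold enrichment of 4.41.

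TBK1, the kinase that phosphorylates OPTN and other autophagy receptors, had H3K27ac but no CTCF peak within 20 kb. The gene lies on the plus strand of chromosome 12 from 64452120 to 64502114. The peak over its start ran from 64451645 to 64453185 with a fold enrichment of 20.1, at percentile 92.8. Upstream of it, 3 peaks with fold enrichments of 3.25 to 4.69 lay inside the interval of XPOT. The remaining peak of the window, with a fold enrichment of 10.1, lay inside RASSF3, the next gene on the other side. The nearest CTCF peaks were 178 kb below the gene interval, with a signal value of 52.4, and 47.4 kb above it, with a signal value of 202. Of all protein-coding genes, 17.0% had no CTCF peak within 20 kb. The last 100 bases before the start are shown at chr12:64452020-64452119 on the plus strand. They hold a match to the NRF1 motif (GCGC, any base, TGCGC) on the other strand and an E-box CACGTG, both in capitals.
TBK1: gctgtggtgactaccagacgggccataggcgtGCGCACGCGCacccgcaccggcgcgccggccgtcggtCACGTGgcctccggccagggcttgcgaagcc

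OPTN, an autophagy receptor that binds ubiquitin, shares its promoter region with CCDC3, whose start on the opposite strand lies 93 bp from that of OPTN. OPTN runs from 13100082 to 13138308 on chromosome 10 and has 2 listed starts. The strongest H3K27ac peak of its window, from 13099016 to 13100008 with a fold enrichment of 13.4 (percentile 86.7), covered the start of CCDC3 and ended 74 bp before the first start of OPTN. A weaker peak from 13100144 to 13100532, with a fold enrichment of 7.04, covered the second start. The first start thus lay in a gap of 135 bp between them. Both CTCF peaks of the window overlapped the stronger H3K27ac peak. One, at 13099562 to 13100042, had its summit 284 bp upstream of the first start and a signal value of 193 (percentile 78.2). It covered the start of CCDC3 and neither start of OPTN. The other CTCF peak had a signal value of 126. No other peak of either list lay in the OPTN window, so the rest of its 38.2 kb interval held no listed peak. Bases from the end of the stronger peak to the first start are shown at chr10:13100009-13100081, plus strand, with matches to GGGCGG in capitals.
OPTN: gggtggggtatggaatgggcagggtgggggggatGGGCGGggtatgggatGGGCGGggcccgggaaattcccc

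C9orf72, part of a complex that acts in autophagy and endosome traffic, lies on the minus strand of chromosome 9 from 27546546 to 27573866 and has 2 listed starts that are 385 bp apart. The hexanucleotide repeat whose expansion is a frequent inherited cause of ALS and FTD sits between them. One broad H3K27ac peak of 2402 bp, from 27572147 to 27574548, covered both starts and the repeat. Its fold enrichment was 27.1, at percentile 95.9. In the reference the repeat comprises 3 copies of GGGGCC, in capitals here, at 27573529 to 27573546. The 100 bases before the second start are shown at chr9:27573482-27573581 on the minus strand.
C9orf72: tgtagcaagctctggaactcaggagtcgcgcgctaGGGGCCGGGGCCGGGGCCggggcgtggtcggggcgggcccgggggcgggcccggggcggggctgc
This is the reference sequence, and the repeat length in KOLF2.1J was not analysed here. A CTCF peak from 27572718 to 27573517 lay within the acetylated interval, and its end was 12 bp from the repeat. Its signal value was 60.1, at percentile 35.7, and its summit was 411 bp from the repeat and 10 bp from the H3K27ac summit. Another CTCF peak inside the gene, 25.5 kb downstream of the first start, had a signal value of 92.2. The strongest, with a signal value of 182, covered the start of the neighbouring gene MOB3B, and a weak H3K27ac peak with a fold enrichment of 5.44 overlapped it. The remaining H3K27ac peaks, inside C9orf72 and inside MOB3B, had fold enrichments of 3.91 and 3.42. On the upstream side the next H3K27ac peak was 153 kb from the gene.

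TMEM106B, a lysosomal membrane protein whose common variants modify FTD risk, stood alone in its window, with no other protein-coding gene. It runs from 12211294 to 12243367 on chromosome 7, plus strand. A peak of 2019 bp from 12210431 to 12212449 covered its start with a fold enrichment of 29.0, at percentile 96.5. In the first part of the gene, 9.05 to 10.4 kb downstream of the start, lay 3 weak peaks with fold enrichments of 4.64, 3.76 and 3.03. Outside the window the nearest H3K27ac peaks were 89.75 kb below and 143 kb above the gene. A CTCF peak with a signal value of 28.4, at percentile 9.74, covered the start, its summit 9 bp from that of H3K27ac. The other CTCF peak lay just past the end of the gene with a signal value of 57.1. The 100 bases before the start, at chr7:12211194-12211293 on the plus strand, hold a match to the NRF1 motif on the other strand, in capitals.
TMEM106B: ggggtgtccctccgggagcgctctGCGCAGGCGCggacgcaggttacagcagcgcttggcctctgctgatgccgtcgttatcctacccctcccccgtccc

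GRN had low acetylation at its start and more CTCF peaks than any of the other 8 genes. It runs from 44345302 to 44353106 on chromosome 17, plus strand, 1.54 Mb below MAPT, the tau gene that the wider study addressed. The start lay in a gap of 254 bp between an upstream H3K27ac peak from 44344652 to 44345063, with a fold enrichment of 9.24 (percentile 78.5), and a downstream peak from 44345318 to 44345764, with a fold enrichment of 4.66. The highest value of the window, 9.66, belonged to a peak inside the neighbouring gene FAM171A2, from 44362689 to 44363832. The other 5 H3K27ac peaks of the window had fold enrichments of 2.83 to 5.06. The GRN window held 8 CTCF peaks, and 96.85% of protein-coding genes ranked below it on this count, ties counted at their midpoint. Among genes within 20% of its length the figure was 99.4%. Of these 8 peaks, 4 were strong. One, at 44345677 to 44346165, reached 259.4 (percentile 90.4) and had its summit 615 bp downstream of the start. Another inside the gene, at 44350673 to 44351172, reached 258.7. The others lay 13.8 kb upstream (signal value 239) and 18.6 kb downstream in FAM171A2 (signal value 182). The 4 weak peaks had values of 9.77 to 51.0, and 2 of them had q-values above 0.05 and overlapped each other. The bases between the upstream H3K27ac peak and the start are shown at chr17:44345064-44345301, plus strand, because they are the part of the promoter that no peak covered. CCAAT boxes are in capitals.
GRN: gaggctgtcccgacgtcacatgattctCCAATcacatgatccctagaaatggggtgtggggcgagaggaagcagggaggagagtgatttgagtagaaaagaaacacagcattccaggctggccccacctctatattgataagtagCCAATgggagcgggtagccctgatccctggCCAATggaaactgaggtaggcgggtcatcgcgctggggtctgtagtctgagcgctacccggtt

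UNC13A, the only synaptic gene of the set, had the lowest acetylation. It lies on the minus strand of chromosome 19 from 17601336 to 17688354 and is the longest of the 9 genes, at 87.0 kb. Its start lay in a gap of 153 bp between a peak from 17687637 to 17688310, with a fold enrichment of 7.23 (percentile 71.1), and a peak from 17688464 to 17688734, with a fold enrichment of 7.13 (percentile 70.5). A further 2 peaks within 2 kb downstream had values of 3.14 and 5.93. The only other H3K27ac peak, 82.2 kb downstream near the far end of the gene, had a fold enrichment of 5.85 and lay wholly inside a strong CTCF peak. That CTCF peak, at 17605976 to 17606469, reached 237 in signal value, or percentile 86.6. The remaining CTCF peak was 15.7 kb upstream of the start, with a signal value of 113. The bases from the start to the end of the gap are shown at chr19:17688355-17688463 on the minus strand, with CCGCCC, the SP motif on the other strand, in capitals.
UNC13A: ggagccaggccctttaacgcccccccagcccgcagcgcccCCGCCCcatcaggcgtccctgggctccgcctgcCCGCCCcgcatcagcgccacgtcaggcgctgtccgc

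SOD1 runs from 31659693 to 31668931 on chromosome 21, and the peaks over the lower end of its interval also overlapped a long noncoding gene, SOD1-DT. An H3K27ac peak from 31659656 to 31660544 covered the lower end of the gene interval with a fold enrichment of 15.4, at percentile 89.1. A second peak from 31659302 to 31659521, which overlapped SOD1-DT and not SOD1, had a fold enrichment of 5.77. Both CTCF peaks of the window were weak. The one over the lower end of the gene had a signal value of 24.4 at percentile 6.52, and the one inside SCAF4 had a signal value of 32.4. SOD1 is not among the 8 genes with a listed start, to which the counts at starts refer.

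The next comparison set acetylation at the genes' own starts against all genes. Of the 8 genes with a listed start, all 8 had an H3K27ac peak within 1 kb of it, against 65.9% of the 15813 protein-coding genes with a listed start. The peak covered a start in 6 of 8, against 46.6%. The median of the highest fold enrichment within 1 kb was 23.6 for the 8 genes and 15.9 for the 10428 genes with such a peak. The order ran from TARDBP (54.0) and VCP (52.3) through TMEM106B (29.0), C9orf72 (27.1), TBK1 (20.1), OPTN (13.4) and GRN (9.24) to UNC13A (7.23). TARDBP stood at percentile 96.6 of the 10428 genes and UNC13A at percentile 17.8, so the set spanned most of the range. GRN stood at percentile 25.6. No replicate spread is available, so whether neighbours in this order differ could not be tested. For OPTN the value belongs to the peak over CCDC3, and the peak over the second OPTN start had 7.04. In 7 of the 8 genes the highest H3K27ac peak of the window was within 1 kb of the own start, and GRN was the exception. This share was not computed over all protein-coding genes, so it cannot be called particular to the set. GRN and UNC13A were the 2 genes with no covered start and a peak within 500 bp on each side of it, an arrangement found in 18.3% of genes with a peak within 1 kb.

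**Figure D2:**
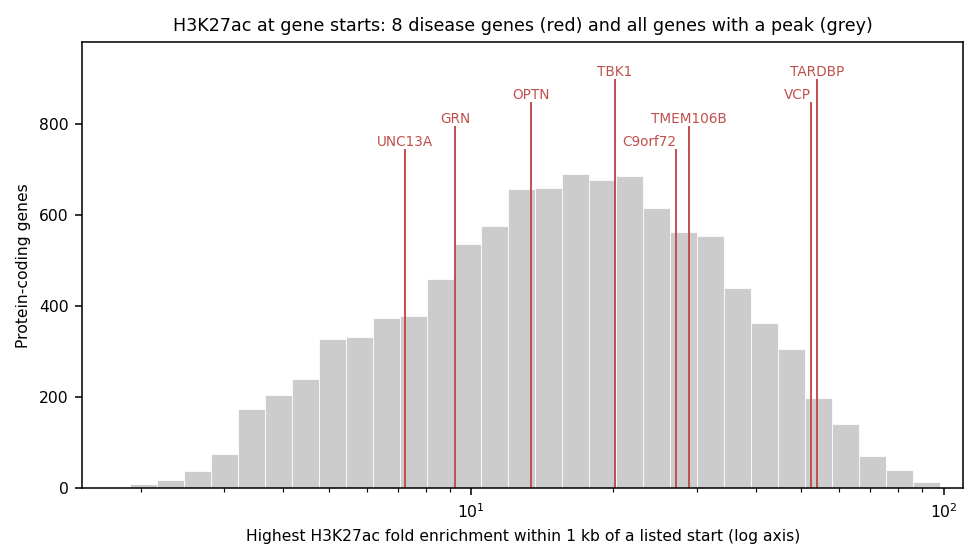
Highest H3K27ac fold enrichment within 1 kb of a listed start (log axis) for 10428 protein-coding genes with such a peak (grey bars, number of genes) and for the 8 disease genes with a listed start (red lines). UNC13A and GRN lie in the lower part of the distribution, at 7.23 and 9.24, and VCP and TARDBP in its upper tail, at 52.3 and 54.0.

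CTCF was then examined at the same starts. A CTCF summit lay within 1 kb of a start in 5 of the 8 genes, namely GRN, C9orf72, VCP, TMEM106B and OPTN, against 33.4% of genes with a listed start and 45.3% of those that also had H3K27ac within 1 kb. TARDBP, TBK1 and UNC13A had none. In OPTN the stronger CTCF peak covered the start of CCDC3 and neither start of OPTN. The values at these starts fell far apart: 259.4 in GRN and 193 in OPTN were above the 75th percentile of the list (179), whereas VCP (67.1, the higher of its pair), C9orf72 (60.1) and TMEM106B (28.4) were below its median of 91.0. Over all windows, 8 of the 23 CTCF peaks reached the 75th percentile, which is 34.8% against 25.9% of the CTCF peaks within 20 kb of any protein-coding gene. A single width of 800 bp recurs in the CTCF list, and 9 of the 23 peaks had it, or 39.1% against 33.1%. These included every CTCF peak of SOD1 and TMEM106B and the one at the C9orf72 starts, and all 9 had signal values of 60.1 or less.

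**Figure D3:**
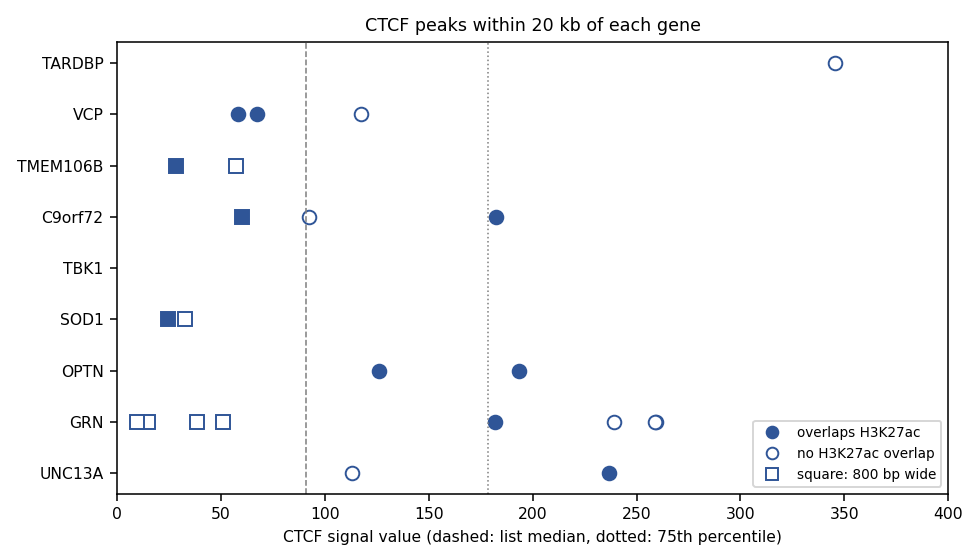
CTCF signal value of every peak within 20 kb of each gene, with squares for peaks of 800 bp and filled symbols for peaks that overlap H3K27ac; dashed and dotted lines mark the list's median (91.0) and 75th percentile (179). The 9 squares all lie below the median, TARDBP has the highest point at 345, and TBK1 has none.

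Of the 23 CTCF peaks, 11 overlapped H3K27ac, which is 47.8% (95% Wilson interval 29.2 to 67.0%, covering counting error only and treating peaks of one window as independent). The share was 32.6% over the CTCF peaks within 20 kb of any protein-coding gene. That share lies inside the interval, but peaks of one window are not independent, so this is not a test. From the other side, 9 of the 36 H3K27ac peaks overlapped CTCF, or 25.0% (95% Wilson interval 13.75 to 41.1%), against 18.2%. The overlaps were of different kinds. In C9orf72, TMEM106B and VCP the whole CTCF peak lay inside the H3K27ac peak at the start, and in 3 of these 4 pairs the summits were 9, 10 and 38 bp apart. At GRN the strong CTCF peak near the start shared only 88 bp with the H3K27ac peak of fold enrichment 4.66, and the summits were 511 bp apart.

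Strong CTCF peaks around the genes were described by the nearest summit at or above the 75th percentile on each side of the first start (for SOD1, the middle of the gene). The distance between those flanking summits had a median of 161 kb over the 9 genes, against 260 kb over the 15632 genes with a listed start and a strong summit on both sides. It was shortest at GRN, 14.4 kb, at percentile 1.46, because its start lies between the strong peaks 13.8 kb upstream and 615 bp downstream. OPTN followed with 61.6 kb, TARDBP with 76.6 kb and VCP with 102 kb. UNC13A had 161 kb, C9orf72 197 kb and SOD1 269 kb. The widest spans were at TBK1, 368 kb, and TMEM106B, 619 kb, at percentile 75.7. Whether these peaks anchor loops cannot be read from a peak list.

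**Figure D4:**
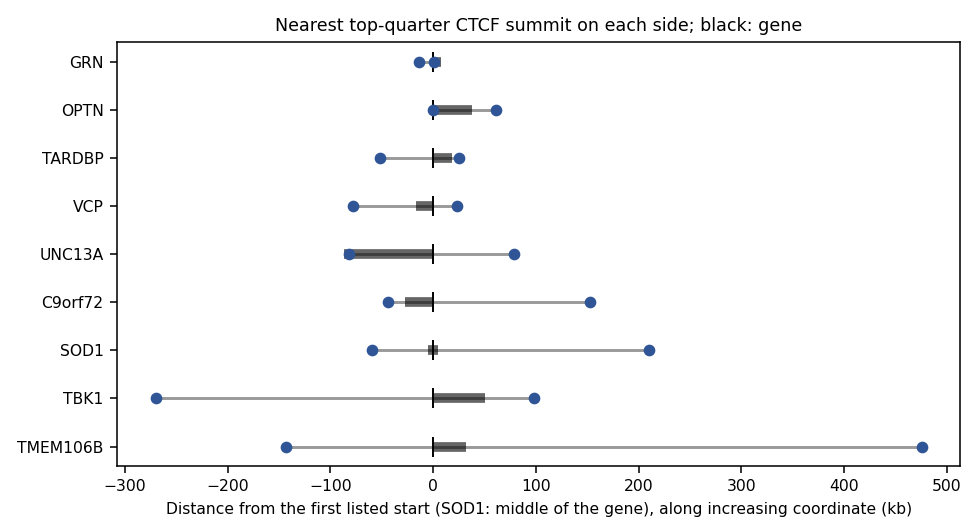
Distance (kb, along increasing coordinate) from the first listed start, or the middle of SOD1, to the nearest CTCF summit at or above the 75th percentile on each side (blue points); black bars are gene intervals. GRN has the shortest span, 14.4 kb, and TMEM106B the longest, 619 kb.

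Promoter sequence was compared over windows from 250 bases before to 50 after each listed start, of which RefSeq gives 22132 for protein-coding genes and 10 for the disease genes. Their G and C content ranged from 49.0% at the first C9orf72 start to 75.7% at the second OPTN start, around a median of 62.3% over all windows. The CTCF core letters (CC, 3 free bases, AG, 2 free bases, GGC), searched on both strands like each motif here, were absent from all 10 windows. They occurred in 12.4% of all windows and in 30.0% of those that hold a CTCF summit, and none of the 10 windows held one, since the CTCF summits near these starts fell outside them. The CCAAT box occurred in VCP (5 matches), GRN (3), TBK1 (1) and the first C9orf72 window (1), against 34.6% of all windows. GGGCGG was found in TARDBP, UNC13A and both windows of C9orf72 and of OPTN, against 56.3%. The NRF1 motif occurred in TMEM106B and TBK1, against 7.41%, and CACGTG in TBK1 and UNC13A, against 8.34%. TBK1 also held the ETS motif CCGGAAG, found in 12.8% of windows, and TATAAA (9.46%) was in none of the 10. Such matches describe letters and not bound sites.

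A further 30 genes linked to ALS or FTD, listed with earlier results of these data known, gave a broader view. Of these, 29 had an H3K27ac peak within 20 kb and 29 a CTCF peak, at backgrounds of 81.3% and 83.0%. The median of the highest fold enrichment was 21.6, close to 20.1 for the 9 genes, and 14.4 over all protein-coding genes. Genes without a peak were counted as 0 in these medians, and they made up 18.7% of all protein-coding genes. DCTN1, a subunit of the dynactin motor complex, reached 65.5, ATXN2, an RNA-binding protein, 65.5, and MATR3, a nuclear matrix protein that binds RNA, 64.3. At the low end were ANXA11 with no peak, CYLD with 9.58 and CCNF with 9.92. For CTCF the highest signal values were 343 in DCTN1, 321 in MATR3 and 284 in FIG4, and the lowest were 27.3 in PFN1 and 44.9 in UBQLN2, with none at TUBA4A. At the starts, 17 of the 20 genes with a listed start had H3K27ac within 1 kb, against 65.9%, and 11 of 20 had a CTCF summit there, against 33.4%. TUBA4A, ANXA11 and CYLD had no H3K27ac within 1 kb of a start. The highest peak of a window can belong to a neighbour: PFN1 had 54.2 in its window but 15.9 at its own start, and CHCHD10 had 49.7 and 6.62.

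**Figure D5:**
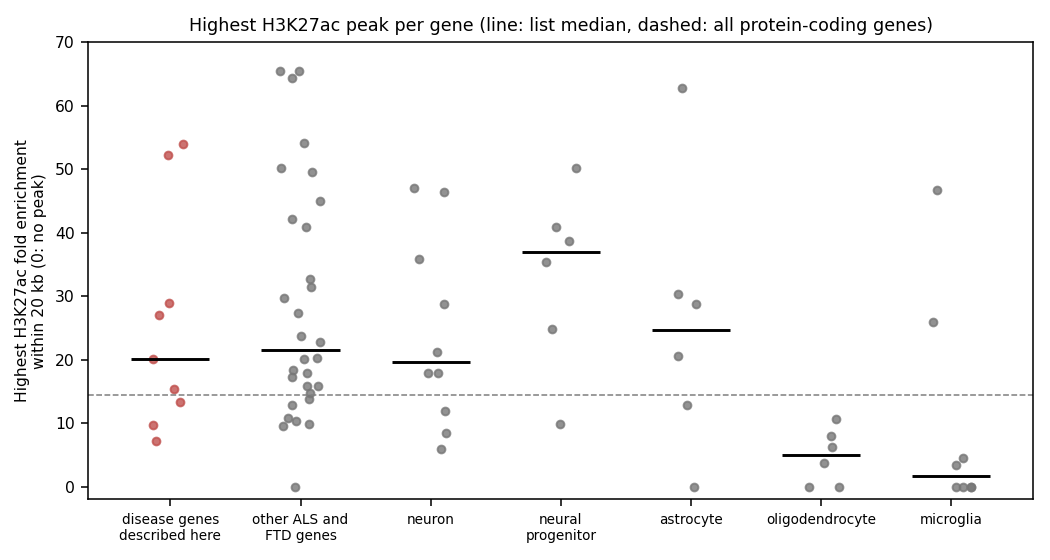
Highest H3K27ac fold enrichment within 20 kb of each gene (points; 0 where there was no peak) in the 9 disease genes, 30 other ALS and FTD genes and 5 marker lists, with list medians as black lines and the median of all protein-coding genes, 14.4, dashed. The median is 20.1 for the disease genes, 37.0 for neural progenitor, 24.7 for astrocyte, 19.6 for neuron, 4.93 for oligodendrocyte and 1.71 for microglia markers.

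The limit of 20 kb decided a few peaks. The upper H3K27ac peak of TBK1, with a fold enrichment of 10.1, straddled it, and the next, with 7.80, began 341 bp outside. At GRN an H3K27ac peak with a fold enrichment of 2.70 ended 3 bp outside the window, and a CTCF peak with a signal value of 14.9 began 224 bp inside it. A CTCF peak with a signal value of 28.3 ended 393 bp outside the window of UNC13A.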

How the data were processed

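CTCF, H3K27ac and input were each sequenced from 2 libraries. Per the submitters' processing notes, the genome build was hg38 and cutadapt 1.16 was used; the aligner, the peak caller and its settings are not given in the sources used here. Each deposited list has 10 columns and covers both replicates, so no spread between replicates and no depth was available; single-replicate and input values were not analysed here. The name of the CTCF list contains IDR, a filter on agreement between replicates, and that of the H3K27ac list does not. Whether the lists were filtered alike was not established here. The CTCF signal value is the authors' own, on a scale that is not stated. The deposited H3K27ac value was read as a fold enrichment (a ratio) from its range. Both lists also hold the authors' −log10 q (for CTCF at most 4.78) and a deposited score of at most 1000, which was not used.

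Gene intervals and starts came from RefSeq tables of GRCh38.p14, for 19974 protein-coding genes on chromosomes 1 to 22 and X, 15813 of them with a listed start. Percentiles count values below plus 50% of ties. Overlap meant 1 bp. The functions were tested on simulated peaks. Python 3.11.15, pandas 2.3.3 and scipy 1.17.1 were used. Named peaks were, per gene, the strongest and the nearest to the start in each list, those over the start, those at or above percentile 75 and overlapping pairs. Of the 30 other genes, the 3 highest and 3 lowest per list and those without a peak were named; PFN1 and CHCHD10 as neighbour cases, and the comparison of starts lying between peaks, the flanking strong peaks and the GGGGCC letters, were chosen after values were seen. Members and lists were chosen with earlier results of these data known.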

Additional observations from a re-analysis of the deposited data

How the results depend on the processing

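No paired analysis was possible because each list covers both replicates and holds no values of single replicates, and leaving out each replicate was not run for that reason. Of 47 alternatives, 30 left the value within 1.5 times its size (or, for percentiles, at the same value) and 17 moved it. Counts have no direction, so a reversal could not be seen in them. Percentiles have no interval, so any change counts as a move. When each list was reduced to its upper 50% by value, the windows held 20 H3K27ac peaks (36 in the full list) and 12 CTCF peaks (23), 5 of which overlapped H3K27ac (11). With no extension the gene intervals held 18 H3K27ac and 9 CTCF peaks, 7 of which overlapped H3K27ac, and the median percentile of the highest value among protein-coding genes was 75.66 for H3K27ac (63.19 with 20 kb) and 46.97 for CTCF (53.74). With 50 kb there were 68 H3K27ac and 36 CTCF peaks, and these percentiles were 66.32 and 54.47. They were 63.59 and 53.91 when the summit had to lie in the window, and 59.09 and 55.6 among genes of like length. Without CTCF peaks of 800 bp, 14 CTCF peaks were left. The number of genes with a CTCF peak was 6, instead of 8, in the upper 50%, with no extension and without CTCF peaks of 800 bp. With 50 kb it was 9. The share over all protein-coding genes at these settings is not given here. Fewer peaks or shorter windows lower such counts by construction. With no extension the CTCF percentile lay below the middle of all protein-coding genes, and with 20 kb it lay above. The cause of the moves in percentile was not tested. Unknown depth limits every statement on a missing peak: no peak listed at TBK1 does not show that CTCF is absent there.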
